A study of Mus musculus with 8 samples.

Results

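The SLC25 family of solute carriers was followed gene by gene in mouse brown adipose tissue that had lost Ogt in brown adipocytes. Ogt encodes the enzyme that places O-GlcNAc, a single sugar, on proteins inside the cell. The series sets brown adipocyte-specific Ogt knockout mice (OGTBKO) against wild-type mice (WT), and its title places the study in the control of brown fat vessels by adipocyte O-GlcNAc signalling. The members were chosen by symbol and by FPKM above 0: all protein-coding genes whose symbol is Slc25a followed by a number and whose value was above 0 in at least 1 library: 47 of the 54532 genes in the table. No gene with such a symbol lay outside it, and the members nearest to its edge were Slc25a41 and Slc25a54, each above 0 in 1 library, and Slc25a21, above 0 in 3. The name does not take in the whole family: the uncoupling proteins Ucp1, Ucp2 and Ucp3 and the homologues Mtch1 and Mtch2 carry other symbols and are given at the end as a list of their own.

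OGTBKO and WT had 4 RNA-seq libraries each, made from whole dissected brown fat with the surrounding white fat removed. Mice of both genotypes were kept at 23 °C on standard chow, were induced after 8 weeks with an agent spelled "gomaxifen" in the labels, and gave their tissue 2 months later. The labels name neither the Cre driver nor the alleles, and they give no sex. They also do not say whether each library came from its own animal. The p-values therefore set group differences against the spread between these libraries, which may not be that between animals. Each library held 13393962 to 15897920 reads in genes, and the 47 members took 0.412% to 0.481% of them in OGTBKO and 0.316% to 0.483% in WT. Values are FPKM, fragments per kilobase of gene after scaling for depth by the authors. Levels of different members are set side by side on that scale, and their order depends on the gene lengths used. Over the 8 libraries Slc25a51 and Slc25a3 had more reads (57125 and 53165) than Slc25a5 (37800) but lower FPKM, with lengths of 5510, 5550 and 1646 bases. Ogt itself stood at 10.7 to 14.5 FPKM in OGTBKO and at 22.5 to 33.1 FPKM in WT.

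The libraries were not equal in what else they held. The 14 skeletal muscle markers summed to 1629 FPKM in OGTBKO 1 and to 537 FPKM in WT 1, against 1.10 to 6.68 FPKM in the other OGTBKO and 0.831 to 39.7 FPKM in the other WT libraries. Acta1, the actin of skeletal muscle fibres, had 624.5 FPKM in OGTBKO 1 and 254.6 FPKM in WT 1. The 9 white adipocyte markers summed to 171 to 232 FPKM in OGTBKO and 66.4 to 139 FPKM in WT, without overlap, with 2 of 7 tested higher and 0 lower, while Tcf21 was at 0 in all 8 libraries. The 14 brown adipocyte markers, high in both groups as the tissue label says, summed to 3486 to 3837 FPKM in OGTBKO and 3790 to 5239 FPKM in WT, with 1 higher and 5 lower. Ucp1 weighed heavily in that sum, with means of 1006 FPKM in OGTBKO and 2051 FPKM in WT. Some others had the higher mean in OGTBKO, such as Cox8b (1152 and 775 FPKM) and Cox7a1 (205 and 93.2 FPKM). Over all genes tested 8.11% were higher and 7.46% lower. The 10 general adipocyte markers summed to 4275 to 5862 FPKM in OGTBKO and 3805 to 5191 FPKM in WT, with 1 higher and 0 lower. The 10 macrophage markers summed to 247 to 569 FPKM in OGTBKO and 182 to 364 FPKM in WT, with 0 higher and 1 lower. Lyz2 weighed heavily in the macrophage sum, with means of 317 FPKM in OGTBKO and 173 FPKM in WT. Adgre1, Cd68, Csf1r, Itgam and C1qa also had higher means in OGTBKO, while Mrc1, Cd163, C1qb and Fcgr1 had lower ones. Endothelial markers (163.8 to 176 FPKM in OGTBKO, 139 to 176 FPKM in WT), fibroblast markers (195 to 513 FPKM in OGTBKO, 271 to 351 FPKM in WT) and erythroid markers (409.8 to 841 FPKM in OGTBKO, 397 to 1102 FPKM in WT) overlapped between the groups. Of these, 1 endothelial marker was called higher. The part of all these markers in the results below was not tested, except that the muscle-bearing libraries were left out where stated. In tissue RNA, fewer cells of a type and less RNA per cell cannot be told apart.

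SLC25 proteins are small membrane proteins built from repeated modules, and most of them sit in the inner mitochondrial membrane. There they exchange or carry metabolites that cannot cross by themselves: ADP for ATP, phosphate, citrate and other organic acids, amino acids, carnitine esters, nucleotides, vitamin-derived cofactors and iron. A few sit elsewhere, in the peroxisomal membrane or in the outer mitochondrial membrane. Brown fat is rich in mitochondria, and the family's best known member there is Ucp1, which lets protons back into the matrix and turns the energy of respiration into heat.

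Carrier transcripts spanned a wide range of levels. Averaged over the 8 libraries, 9 members stood at 50 FPKM or more, 12 between 10 and 50, 13 between 1 and 10, and 13 below 1 FPKM. The member FPKM values summed to 1118 to 1298 in OGTBKO and to 1059 to 1268 in WT, so the total overlapped. The 6 members with the highest means were Slc25a5, Slc25a1, Slc25a39, Slc25a51, Slc25a20 and Slc25a3. They made up 57.0% to 63.1% of that sum in OGTBKO and 53.9% to 54.6% in WT.

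**Figure D1:**
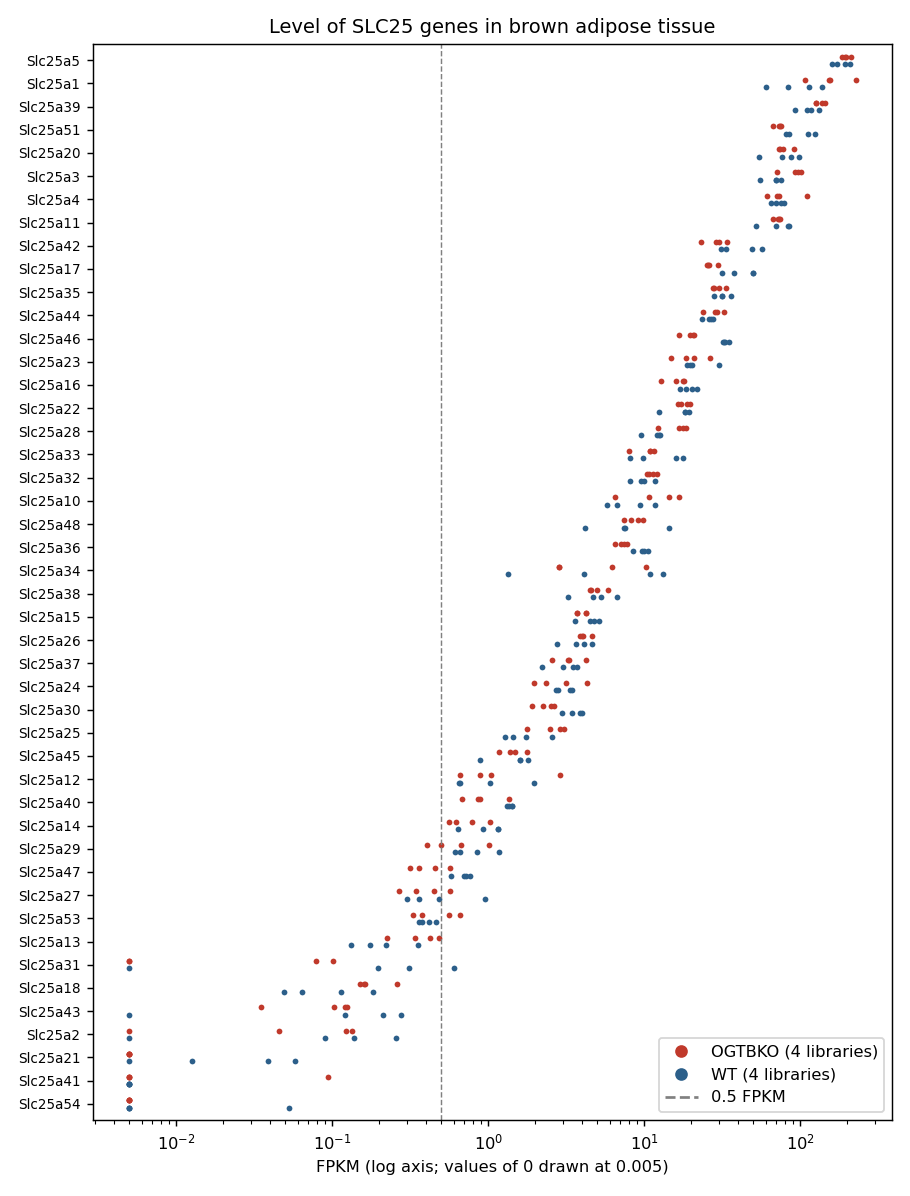
FPKM of SLC25 genes on a log axis, 1 row per gene in order of the mean over 8 libraries, with OGTBKO libraries as red points just above WT libraries as blue points. Slc25a5 is at the top at 159 to 213 FPKM, and the dashed line at 0.5 FPKM is the mean level below which 10 members were not tested.

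The comparison was fitted with limma on log2(FPKM + 0.5) for all 13171 genes with a mean of at least 0.5 FPKM, and a gene was called at an adjusted p (Benjamini-Hochberg) under 0.05. Of the 47 members, 37 passed that filter. Slc25a47, with a mean of 0.558 FPKM, lay just inside it, and Slc25a27 and Slc25a53, with means of 0.466 and 0.443 FPKM, just outside. Of the 37, 4 were lower in OGTBKO, 0 were higher, and 33 missed the threshold. Among all genes tested 15.6% were called, 8.11% higher and 7.46% lower, so the members' share of 10.8% was near that of the other genes. At an unadjusted p under 0.05 there were 10 members, 3 higher and 7 lower. OGTBKO and WT values did not overlap for 6 of the 37, all of them lower in OGTBKO (16.2%), where all genes gave 11.4% lower and 11.1% higher without overlap. Slc25a47 is among these 6 only by a very narrow gap (0.571 FPKM in OGTBKO 1, 0.574 FPKM in WT 4). The median log2 change was 0.0021 over the 37 members and -0.0021 over all genes tested, and the members ranged from -0.75 to 0.71.

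**Figure D2:**
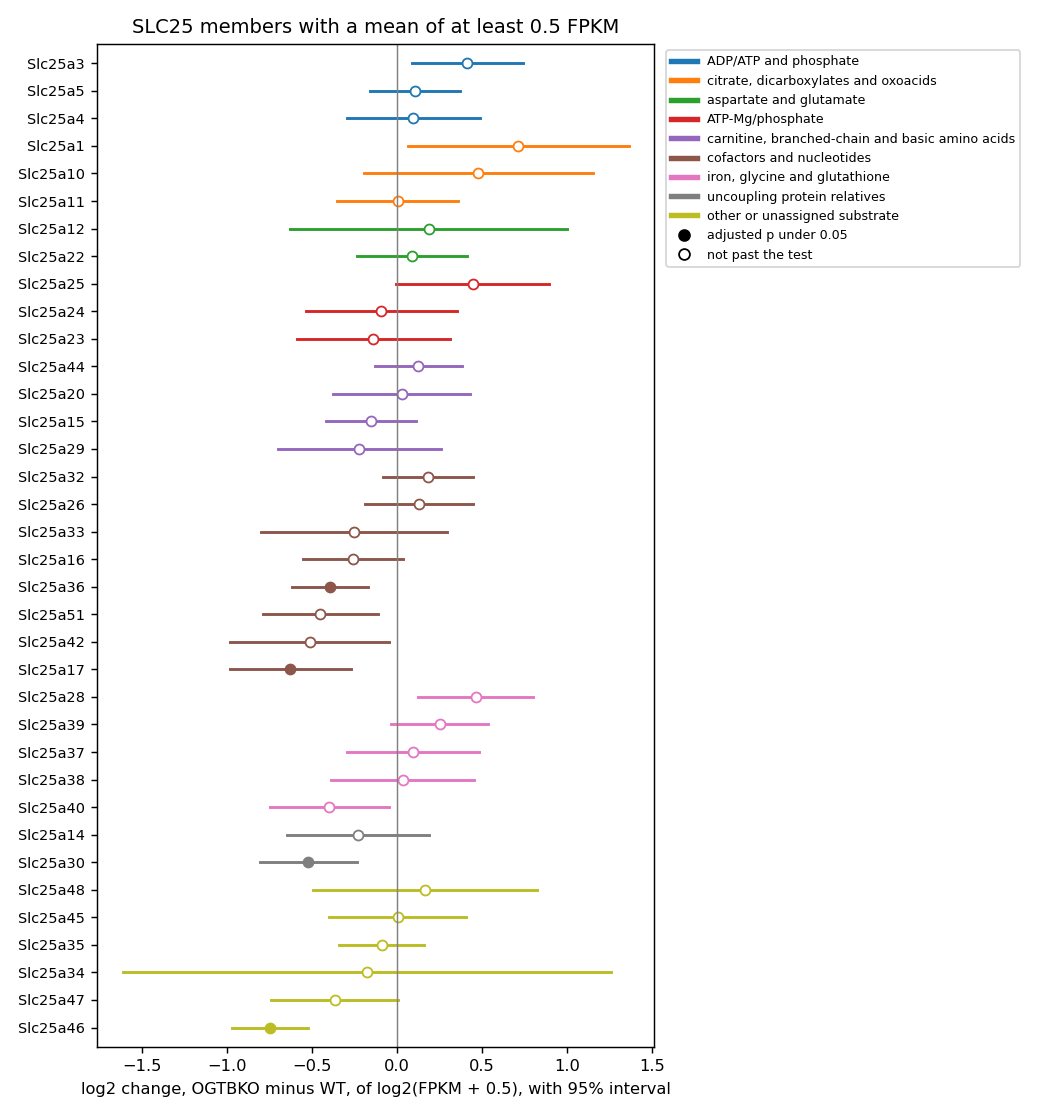
Log2 change, OGTBKO minus WT, of SLC25 genes tested, with the 95% interval of the limma fit, coloured by the kind of substrate. The 4 filled points, Slc25a46, Slc25a17, Slc25a30 and Slc25a36, passed an adjusted p of 0.05, all on the lower side.

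Slc25a46 gave the clearest difference of the family. Its product sits in the outer mitochondrial membrane, where it takes part in fusion and fission of mitochondria and in lipid balance rather than in carrying a known metabolite. It had 19.8, 20.9, 16.8 and 20.7 FPKM in OGTBKO 1 to 4, against 31.9, 34.9, 32.4 and 33.1 FPKM in WT 1 to 4. The 4 OGTBKO libraries lay close together and all lay well below the lowest WT library. The log2 change was -0.75 ± 0.10 (SE; limma, adjusted p = 0.0040). It passed the test in all 21 fits, the main one and 20 alternatives, with adjusted p from 0.0018 to 0.024. Between 1260 and 2363 reads per library stood behind it. On the opposite strand, B930094E09Rik shares 383 bases of exon with it, 8.76% of its length, and averaged 1.96 FPKM in OGTBKO and 1.35 FPKM in WT. No source used here says that strand was used in counting, so shared reads cannot be told apart.

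Slc25a17 encodes the peroxisomal member, which carries coenzyme A and other nucleotide cofactors across the peroxisomal membrane. It had 29.7, 25.1, 26.2 and 25.7 FPKM in OGTBKO 1 to 4, against 37.4, 49.7, 31.6 and 50.2 FPKM in WT 1 to 4. The OGTBKO libraries were tightly grouped, while WT spread widely with WT 2 and WT 4 on top, and the groups did not overlap. The log2 change was -0.63 ± 0.16 (SE; limma, adjusted p = 0.030). The call was lost without OGTBKO 2, OGTBKO 3, OGTBKO 4, WT 2 or WT 4, with adjusted p from 0.070 to 0.083, and the log2 change then lay between -0.62 and -0.54. It was kept with the muscle-bearing libraries OGTBKO 1 and WT 1 left out (-0.73, adjusted p = 0.043).

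Slc25a30 encodes a relative of the uncoupling proteins first described in kidney. It had 2.65, 2.53, 2.25 and 1.90 FPKM in OGTBKO 1 to 4, against 3.42, 3.99, 2.98 and 3.88 FPKM in WT 1 to 4. All 4 OGTBKO libraries were below all 4 WT libraries, at a low level. The log2 change was -0.52 ± 0.13 (SE; limma, adjusted p = 0.027). Its call was lost without OGTBKO 3, OGTBKO 4, WT 2 or WT 4, at adjusted p of 0.068 to 0.080 and log2 changes of -0.51 to -0.44. Without OGTBKO 1 and WT 1 together it was -0.59 (adjusted p = 0.042).

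Slc25a36 encodes a carrier of pyrimidine nucleotides, which mitochondria need to make their own DNA and RNA. It had 6.54, 7.42, 7.14 and 7.76 FPKM in OGTBKO 1 to 4, against 9.72, 9.91, 10.6 and 8.45 FPKM in WT 1 to 4. The highest OGTBKO library, OGTBKO 4, lay a little under the lowest WT library, WT 4. The log2 change was -0.39 ± 0.10 (SE; limma, adjusted p = 0.031). It was no longer called without OGTBKO 1, OGTBKO 2, OGTBKO 3, OGTBKO 4 or WT 2, with adjusted p from 0.055 to 0.085 and log2 changes from -0.43 to -0.35. With OGTBKO 1 and WT 1 both left out it was -0.35 (adjusted p = 0.082). The choice of denominator also bore on these calls: with each library's own total in place of the authors' scaling, Slc25a17 (-0.51, adjusted p = 0.17), Slc25a30 (-0.43, adjusted p = 0.16) and Slc25a36 (-0.29, adjusted p = 0.14) were not called and Slc25a46 was. Without the filter on low values, Slc25a17 (adjusted p = 0.058) and Slc25a30 (adjusted p = 0.061) just missed the threshold. The transcripts of Slc25a36 had a GC content of 40.0%, and once trends with GC content and length were taken out of every library its log2 change was -0.11 (adjusted p = 0.43), while that of Slc25a17 was -0.57 (adjusted p = 0.051).

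**Figure D3:**
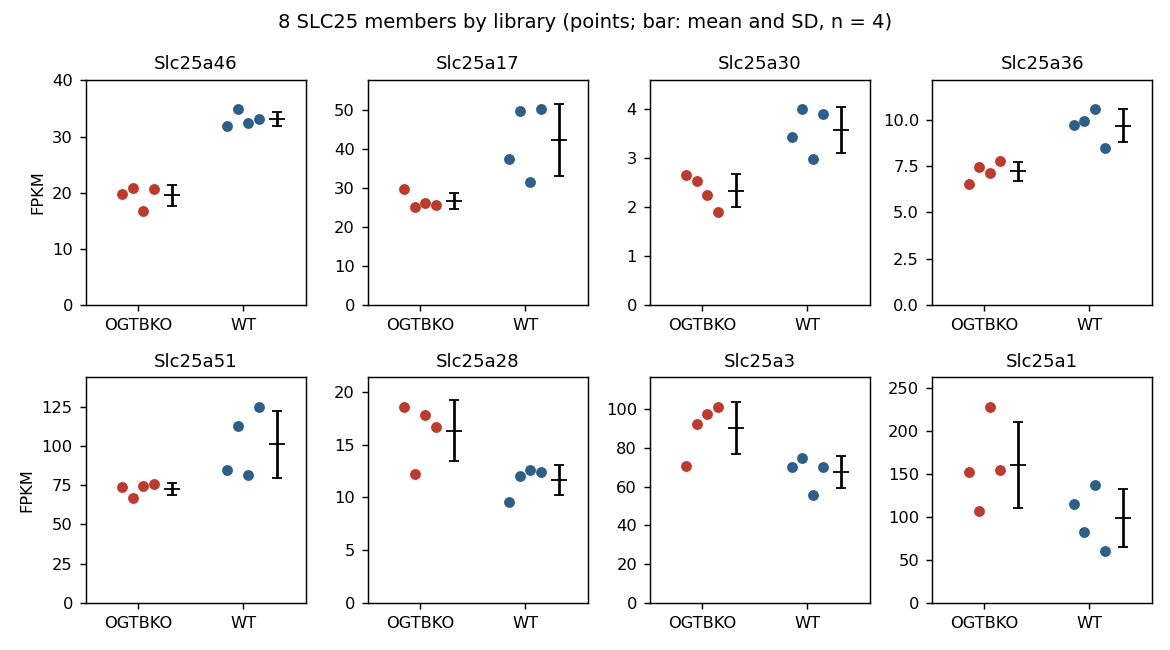
FPKM of 8 SLC25 genes in each library, OGTBKO (red) left of WT (blue), with the mean and SD of each group (n = 4) beside the points and axes from 0. In the 4 upper panels and for Slc25a51 every OGTBKO library is below every WT library, while Slc25a28, Slc25a3 and Slc25a1 have OGTBKO means above the WT means with overlap.

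The stretch before the start is shown for 3 of the 4 called members, Slc25a17, Slc25a30 and Slc25a36. Each was called lower on its own, and whether they change together was not tested. Such stretches were matched for 36 members, and that of Slc25a46 is not shown. They are RefSeq sequences of build GRCm38.p6, each read 5′ to 3′ on the minus strand, which carries all 3 genes. Each was taken from the 250 bases before the RefSeq start and ends at the start in the deposited table where that lies further upstream. Capitals mark CCAAT, the ETS core CCGGAAG, the cAMP response element TGACGTCA and the E box CACGTG, all searched on both strands.
Slc25a17, chr15:81360813-81361015: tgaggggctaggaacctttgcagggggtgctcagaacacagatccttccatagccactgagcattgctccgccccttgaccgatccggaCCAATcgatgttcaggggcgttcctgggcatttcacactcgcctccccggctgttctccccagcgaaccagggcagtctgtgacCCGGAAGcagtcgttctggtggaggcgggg
Slc25a30, chr14:75787038-75787287: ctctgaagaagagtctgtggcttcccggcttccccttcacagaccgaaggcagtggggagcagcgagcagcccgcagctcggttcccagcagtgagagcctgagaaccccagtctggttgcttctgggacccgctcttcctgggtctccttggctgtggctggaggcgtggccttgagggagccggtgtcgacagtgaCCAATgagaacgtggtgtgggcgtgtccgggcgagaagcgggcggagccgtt
Slc25a36, chr9:97111158-97111291: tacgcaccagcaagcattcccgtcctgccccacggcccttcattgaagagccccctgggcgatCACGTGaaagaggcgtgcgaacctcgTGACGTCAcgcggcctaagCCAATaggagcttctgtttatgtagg
All 3 held CCAAT, which 33.8% of 32851 mouse promoter windows of 250 bases and 18 of the 36 matched members also held, so the motif is common. The Slc25a36 window added TGACGTCA, found in 1.55% of all windows and otherwise, among members, in Slc25a25. It also held CACGTG, found in 6.02% of all windows and in 7 of the 36 members. The Slc25a17 window held CCGGAAG, found in 6.91% of all windows and in 6 members. The site of NRF1, a regulator of mitochondrial genes, searched as GCGCNNGCGC, was in none of the 3 and in 2 members, Slc25a3 and Slc25a31, against 4.98% of all windows. These matches describe the letters and do not show binding.

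The ADP/ATP and phosphate carriers feed ATP synthase and export its product, and none of the 3 tested was called, with log2 changes of 0.09 to 0.41. Slc25a5, the ADP/ATP carrier of most tissues and the highest member by FPKM, had 213, 184, 197 and 194 FPKM in OGTBKO 1 to 4, against 159, 194, 172 and 210.2 FPKM in WT 1 to 4. The groups overlapped (log2 change 0.11 ± 0.12, SE; limma, adjusted p = 0.58). The table also lists a pseudogene, Slc25a5-ps, and how reads matching both were counted is not given in the sources used here. Slc25a3, the phosphate carrier, had 70.8, 92.2, 97.2 and 101 FPKM in OGTBKO 1 to 4, against 70.1, 74.9, 55.6 and 69.9 FPKM in WT 1 to 4. OGTBKO 2, 3 and 4 lay above every WT library and OGTBKO 1 lay within the WT range. Its log2 change was 0.41 ± 0.15 (SE; limma, adjusted p = 0.083), and it passed the test without OGTBKO 1 (0.52, adjusted p = 0.038), without OGTBKO 1 and WT 1 (0.54, adjusted p = 0.043), and with array weights (0.39, adjusted p = 0.041).

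Slc25a4, the ADP/ATP carrier typical of heart and skeletal muscle, had 110.2, 61.5, 71.2 and 73.4 FPKM in OGTBKO 1 to 4, against 64.7, 70.4, 79.3 and 75.4 FPKM in WT 1 to 4. OGTBKO 1, the library with the most muscle marker RNA, stood alone at the top, while WT 1 was the lowest of WT. The log2 change was 0.09 ± 0.17 (SE; limma, adjusted p = 0.75), and -0.13 (adjusted p = 0.48) without OGTBKO 1 and WT 1, so no direction can be given. Slc25a31, the ADP/ATP carrier of germ cells, was below the filter at 0 to 0.101 FPKM in OGTBKO and 0 to 0.604 FPKM in WT.

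The carriers of aspartate and glutamate serve the malate-aspartate shuttle and amino acid breakdown, and of 4 members 2 were tested and none was called. Slc25a12, the calcium-regulated aspartate-glutamate carrier of excitable tissues, had 2.87, 1.05, 0.886 and 0.655 FPKM in OGTBKO 1 to 4, against 1.96, 1.03, 0.656 and 0.650 FPKM in WT 1 to 4. The highest library of each group was OGTBKO 1 and WT 1, those with muscle RNA. Its log2 change was 0.19 ± 0.36 (SE; limma, adjusted p = 0.77), -0.14 without OGTBKO 1, and 0.10 (adjusted p = 0.77) without OGTBKO 1 and WT 1. The log2 ratio of Slc25a12 to its paralogue Slc25a13, each with 0.5 FPKM added, was 2.22 in OGTBKO 1 and 1.96 in WT 1, against 0.46 to 0.74 in the other OGTBKO and 0.43 to 1.08 in the other WT libraries. Slc25a13, the liver type, was under the filter at 0.224 to 0.483 FPKM in OGTBKO and 0.133 to 0.354 FPKM in WT. Of the glutamate carriers, Slc25a22 averaged 18.0 ± 1.43 FPKM in OGTBKO and 17.1 ± 3.13 FPKM in WT (SD, n = 4 each), and Slc25a18 was under the filter at 0.150 to 0.262 FPKM in OGTBKO and 0.0494 to 0.183 FPKM in WT.

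**Figure D4:**
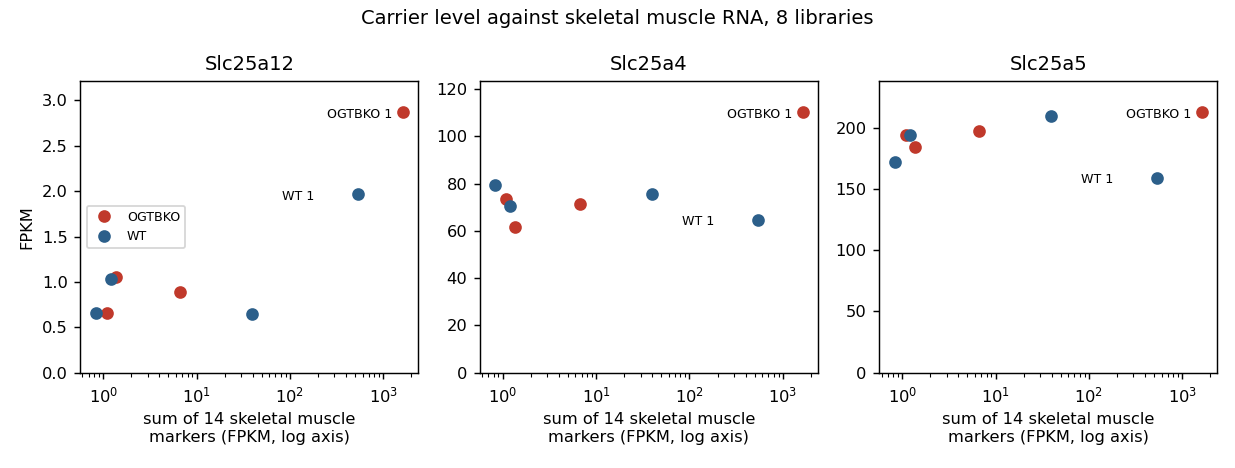
FPKM of Slc25a12, Slc25a4 and Slc25a5 against the summed FPKM of 14 skeletal muscle markers (log axis) in the 8 libraries, OGTBKO in red and WT in blue. Slc25a12 is highest in OGTBKO 1 and WT 1, which hold the most muscle RNA, Slc25a4 is highest in OGTBKO 1 alone, and Slc25a5 is spread over both.

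The citrate, dicarboxylate and oxoacid carriers link the citric acid cycle to the cytosol. Slc25a1, which exports citrate for fatty acid synthesis, had 153, 107, 228 and 155 FPKM in OGTBKO 1 to 4, against 115, 83.2, 137 and 60.4 FPKM in WT 1 to 4. Both groups spread widely, OGTBKO 3 was the highest library and WT 4 the lowest, and the groups overlapped. The log2 change of 0.71 ± 0.29 (SE) was the highest of the 37 and missed the threshold (limma, adjusted p = 0.12). It passed in 1 of the 20 alternatives, with array weights (0.91, adjusted p = 0.038), and was 0.46 with GC and length trends removed (adjusted p = 0.32). Slc25a10, the dicarboxylate carrier, averaged 12.1 ± 4.49 FPKM in OGTBKO and 8.41 ± 2.69 FPKM in WT (SD, n = 4 each; log2 change 0.48 ± 0.30, SE; limma, adjusted p = 0.30). Slc25a11, the oxoglutarate carrier of the malate-aspartate shuttle, averaged 71.8 ± 3.18 FPKM in OGTBKO and 72.9 ± 15.5 FPKM in WT. The oxodicarboxylate carrier Slc25a21 was at 0 in all OGTBKO libraries and at 0 to 0.0573 FPKM in WT, under the filter and at most 4 reads in a library.

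Among carriers of carnitine and amino acids, none of the 4 tested was called, with log2 changes from -0.22 to 0.12. Slc25a20 brings long-chain acylcarnitines into the matrix for fatty acid oxidation, the main fuel of brown fat. It had 90.9, 74.4, 73.0 and 78.1 FPKM in OGTBKO 1 to 4, against 54.3, 87.3, 76.9 and 98.6 FPKM in WT 1 to 4. All OGTBKO libraries lay inside the range of WT, and the log2 change was 0.03 ± 0.18 (SE; limma, adjusted p = 0.94) with a 95% interval from -0.38 to 0.43. It changed sign in 4 of the 20 alternatives, reaching -0.21 without OGTBKO 1 and WT 1.

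Slc25a44 brings branched-chain amino acids into mitochondria and has been tied to their use as fuel by brown fat in the cold. It had 32.4, 24.0, 28.6 and 29.5 FPKM in OGTBKO 1 to 4, against 23.6, 27.8, 26.7 and 26.2 FPKM in WT 1 to 4. The highest library was OGTBKO 1 and the groups overlapped (log2 change 0.12 ± 0.11, SE; limma, adjusted p = 0.48, 95% interval from -0.13 to 0.38). The ornithine carrier Slc25a15 averaged 3.97 ± 0.301 FPKM in OGTBKO and 4.50 ± 0.648 FPKM in WT (SD, n = 4 each). Slc25a29, a carrier of basic amino acids, averaged 0.643 ± 0.264 FPKM in OGTBKO and 0.826 ± 0.255 FPKM in WT. Its relative Slc25a2 was under the filter at 0 to 0.133 FPKM in OGTBKO and 0 to 0.255 FPKM in WT.

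The carriers of cofactors and nucleotides held 2 of the 4 calls, Slc25a17 and Slc25a36, among 9 members that were all tested. Each of these 2 calls was lost in 9 of the alternative fits. Over all genes tested 7.46% were lower. Whether calls gather in this role was not tested, so the count is not read as a trait of it. The log2 changes of the 9 members ran from -0.63 to 0.18 with a median of -0.26. Slc25a51, which brings NAD+ into mitochondria, had 73.5, 66.7, 74.2 and 75.9 FPKM in OGTBKO 1 to 4, against 84.5, 113, 81.5 and 124.9 FPKM in WT 1 to 4. The groups did not overlap, and as with Slc25a17 the OGTBKO libraries were close together while WT 2 and WT 4 were far above the other WT libraries. Its log2 change of -0.45 ± 0.15 (SE) missed the threshold (limma, adjusted p = 0.072) and passed it without WT 3 (-0.55, adjusted p = 0.038) and with array weights (-0.59, adjusted p = 0.012). Slc25a42, which carries coenzyme A, averaged 29.0 ± 4.51 FPKM in OGTBKO and 42.6 ± 12.4 FPKM in WT (SD, n = 4 each), also with WT 2 and WT 4 on top. Its groups overlapped (log2 change -0.51 ± 0.21, SE; limma, adjusted p = 0.12), and it passed with array weights (-0.70, adjusted p = 0.023).

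Slc25a16, a relative of Slc25a42, averaged 16.2 ± 2.35 FPKM in OGTBKO and 19.4 ± 2.02 FPKM in WT (SD, n = 4 each; log2 change -0.26 ± 0.13, SE; limma, adjusted p = 0.20). The groups of the following 3 overlapped. Slc25a33, the other pyrimidine nucleotide carrier, averaged 10.3 ± 1.55 FPKM in OGTBKO and 13.0 ± 4.72 FPKM in WT. Slc25a32, linked to folate and flavin in mitochondria, averaged 11.1 ± 0.719 FPKM in OGTBKO and 9.80 ± 1.49 FPKM in WT. Slc25a26, which carries the methyl donor S-adenosylmethionine, averaged 4.13 ± 0.341 FPKM in OGTBKO and 3.79 ± 0.783 FPKM in WT.

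The iron, glycine and glutathione carriers supply heme and iron-sulphur cluster synthesis and mitochondrial redox balance, and none of the 5 was called. Slc25a39, a glutathione importer and the third highest member by FPKM, had 139, 126, 144 and 127 FPKM in OGTBKO 1 to 4, against 93.1, 133, 111 and 117 FPKM in WT 1 to 4. The groups overlapped only through WT 2 (log2 change 0.25 ± 0.13, SE; limma, adjusted p = 0.20). Its paralogue Slc25a40 averaged 0.945 ± 0.293 FPKM in OGTBKO and 1.38 ± 0.0513 FPKM in WT (SD, n = 4 each; log2 change -0.40 ± 0.16, SE; limma, adjusted p = 0.11), at a far lower level and with its mean below WT. The log2 ratio of Slc25a39 to Slc25a40, each with 0.5 FPKM added, was 6.89, 6.54, 6.71 and 6.10 in OGTBKO 1 to 4 and 5.61, 6.12, 5.91 and 6.01 in WT 1 to 4, with OGTBKO 4 just under WT 2. The GC content is 58.6% for Slc25a39 and 39.2% for Slc25a40, and with GC and length trends removed their log2 changes were 0.05 and -0.10.

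Slc25a28, the mitoferrin of most tissues, averaged 16.3 ± 2.87 FPKM in OGTBKO and 11.6 ± 1.4 FPKM in WT (SD, n = 4 each). OGTBKO 2 alone lay within the WT range. The log2 change was 0.46 ± 0.15 (SE; limma, adjusted p = 0.066), and 0.59 without OGTBKO 2 (adjusted p = 0.028). It was 0.24 with GC and length trends removed (adjusted p = 0.28) and 0.31 without OGTBKO 1 and WT 1 (adjusted p = 0.20). Slc25a37, the mitoferrin of red cell precursors, averaged 3.34 ± 0.692 FPKM in OGTBKO and 3.11 ± 0.659 FPKM in WT. Slc25a38, the glycine carrier of heme synthesis, averaged 4.98 ± 0.622 FPKM in OGTBKO and 4.98 ± 1.42 FPKM in WT.

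The ATP-Mg/phosphate carriers set the adenine nucleotide pool of the matrix, and the 3 tested, which are opened by calcium, gave no call. Slc25a25 averaged 2.55 ± 0.567 FPKM in OGTBKO and 1.76 ± 0.568 FPKM in WT (SD, n = 4 each; log2 change 0.44 ± 0.20, SE; limma, adjusted p = 0.16). It was called without OGTBKO 1 and WT 1 (0.73, adjusted p = 0.022) and with array weights (0.53, adjusted p = 0.039). Slc25a24 averaged 2.95 ± 1.04 FPKM in OGTBKO and 3.08 ± 0.358 FPKM in WT. Slc25a23 averaged 20.2 ± 4.85 FPKM in OGTBKO and 22.3 ± 5.36 FPKM in WT, with WT 3 apart from the rest of its group. Slc25a41 had 0.0933 FPKM, 2 reads, in OGTBKO 2 and 0 in the other 7 libraries.

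Of the uncoupling protein relatives, Slc25a14, best known from brain, averaged 0.751 ± 0.211 FPKM in OGTBKO and 0.971 ± 0.245 FPKM in WT (SD, n = 4 each) and was not called beside Slc25a30. Slc25a27, also a brain type, was under the filter at 0.268 to 0.565 FPKM in OGTBKO and 0.302 to 0.953 FPKM in WT. Of the members with other or unassigned substrates, 6 were tested and Slc25a46 was the only call. Slc25a47, known as a liver gene, averaged 0.427 ± 0.113 FPKM in OGTBKO and 0.690 ± 0.0811 FPKM in WT, from 15 to 31 reads per library (log2 change -0.37 ± 0.17, SE; limma, adjusted p = 0.16). Its groups did not overlap, but OGTBKO 1 at 0.571 FPKM almost met WT 4 at 0.574 FPKM. Slc25a35 averaged 29.8 ± 2.75 FPKM in OGTBKO and 31.9 ± 3.42 FPKM in WT, and shares 31.3% of its exon length with Rangrf on the opposite strand. Slc25a48 averaged 8.68 ± 1.04 FPKM in OGTBKO and 8.38 ± 4.28 FPKM in WT. Slc25a45 averaged 1.46 ± 0.253 FPKM in OGTBKO and 1.48 ± 0.401 FPKM in WT.

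Slc25a34 was the most variable of the members tested. It had 10.3, 6.26, 2.85 and 2.82 FPKM in OGTBKO 1 to 4, against 4.11, 10.9, 1.34 and 13.2 FPKM in WT 1 to 4. WT 2, WT 4 and OGTBKO 1 were high and WT 3 low, so the spread within each group was far larger than the difference between the means of 5.55 and 7.40 FPKM. The remaining members under the filter were Slc25a53 at 0.328 to 0.663 FPKM in OGTBKO and 0.362 to 0.465 FPKM in WT, Slc25a43 at 0.0349 to 0.125 FPKM in OGTBKO and 0 to 0.275 FPKM in WT, and Slc25a54 with 1 read in WT 3 alone. Over the 10 members under the filter the mean levels ran from 0.0066 to 0.466 FPKM, and 4 of them were above 0 in all 8 libraries.

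The log2 ratio between related members, each with 0.5 FPKM added, was taken within each library. In none of 13 pairs did OGTBKO and WT separate. For pairs with a low member the size of the ratio depends on what is added: with 0.1 FPKM in place of 0.5, the difference OGTBKO minus WT for Slc25a22 to Slc25a18 was -0.43 in place of -0.10, and for Slc25a15 to Slc25a2 it was 0.10 in place of -0.05. The ratio of Slc25a4 to Slc25a5 was -1.35 ± 0.28 in OGTBKO and -1.34 ± 0.17 in WT (SD, n = 4 each), so the general form exceeded the muscle form in every library. The ratio of Slc25a37 to Slc25a28 was -2.13 ± 0.38 in OGTBKO and -1.76 ± 0.40 in WT, and that of Slc25a24 to Slc25a25 was 0.15 ± 0.36 in OGTBKO and 0.69 ± 0.31 in WT.

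The libraries differed by group in how level went with base composition. Over all genes tested, the log2 level relative to the mean of all libraries had a slope with GC content, fitted together with length, of 0.0044 to 0.0217 per percentage point in OGTBKO and of -0.0141 to -0.0070 in WT, positive in all 4 OGTBKO and negative in all 4 WT libraries. Because levels are relative to that mean, the slopes of the 8 libraries balance out. Only the difference between the groups can be read from them, not the sign in either group. Across the 37 members tested the log2 change had a Pearson r of 0.451 with GC content, and across all genes tested 0.313, where the points share the same 8 libraries and genes are not independent replicates. The members' median GC content was 53.4%, against 50.4% over all genes tested. Of the 18 members with GC content under the members' median, 10 were below 0, with a median log2 change of -0.12, and of the other 19, 8 were below 0 with a median of 0.0035. The called members ranged from 40.0% to 50.8%. Once trends with GC content and length were taken out of every library, Slc25a46 (-0.58, adjusted p = 0.0077) and Slc25a30 (-0.52, adjusted p = 0.032) remained called, and the median over members was -0.10 and over all genes 0.0083. The part of base composition in the calls was not tested beyond this.

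**Figure D5:**
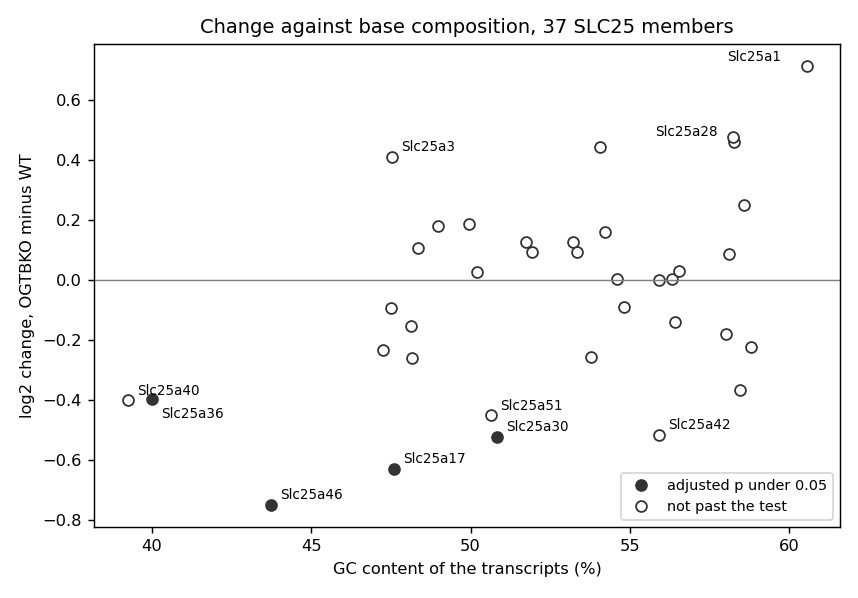
Log2 change, OGTBKO minus WT, of the 37 SLC25 genes tested against the GC content of their transcripts in percent, with filled points for the 4 genes past an adjusted p of 0.05 and names for genes with an unadjusted p under 0.05. The called genes lie between 40.0% and 50.8% GC, and Slc25a1, with the highest change, at 60.5%.

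Other transport genes, most of them mitochondrial, were set beside the members in lists drawn up from known function. Of the 5 family genes under other symbols, Ucp1 alone was called. It had 1026, 904, 1096 and 998 FPKM in OGTBKO 1 to 4, against 1776, 2524, 1512 and 2392 FPKM in WT 1 to 4, a level well above that of any member, with every OGTBKO library below every WT library (log2 change -1.0 ± 0.18, SE; limma, adjusted p = 0.011). It was not called with each library's own total as denominator or without the filter on low values. In this list 1 gene was higher with array weights, with protein-coding genes only and without OGTBKO 1. Of 29 genes tested in a list of other inner membrane transporters, 2 were higher, 3 were lower and 24 missed the threshold. The median log2 change was -0.06. Over all genes tested 8.11% were higher and 7.46% lower, so these counts are not read as a trait of the list. Aqp11, Tspo and Tmem175, which are in this list and its counts, are not known as inner mitochondrial membrane proteins. The higher calls fell to 0 without OGTBKO 2, OGTBKO 3, OGTBKO 4, WT 2 or WT 4 and to 1 without WT 1, without the filter or with a minimum mean of 1 FPKM. The lower calls fell to 1 with the library total, with GC and length trends removed, and without OGTBKO 3, OGTBKO 4 or WT 2, and came to 6 with array weights and 5 without WT 1 or without OGTBKO 1 and WT 1. Among the lower was Abcb8 (15.02 ± 2.03 FPKM in OGTBKO and 26.1 ± 5.34 FPKM in WT; SD, n = 4 each). Higher were Sfxn4, a sideroflexin (2.54 ± 0.716 FPKM in OGTBKO and 1.4 ± 0.266 FPKM in WT), and Aqp11, an aquaporin (0.939 ± 0.171 FPKM in OGTBKO and 0.402 ± 0.0910 FPKM in WT).

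The 3 outer membrane channels tested, Vdac1, Vdac2 and Vdac3, gave no call, and their list summed to 163 to 189 FPKM in OGTBKO and 161 to 206 FPKM in WT. Of the 13 protein genes of the mitochondrial genome 2 were lower and 0 higher, with a median log2 change of -0.68. Over all genes tested 7.46% were lower and 8.11% higher. Reads of the mitochondrial chromosome made up 25.2% to 30.2% of all reads in OGTBKO and 27.2% to 39.4% in WT, the highest in WT 3. Their part in the members' values was not tested.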

How the data were processed

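The authors deposited 1 table of FPKM per gene for 8 libraries. Per the submitters' processing notes, HISAT2 2.0.5, featureCounts 1.5.0-p3 and the mm10 build were used; the strand setting is not given in the sources used here. Values times gene length were whole multiples of 1 read in 100% of cases (tolerance 0.001), which gave reads per gene; the deposited denominators were 0.790 (WT 3) to 1.13 (OGTBKO 3) times a library's own total.

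log2(FPKM + 0.5) of genes with a mean of at least 0.5 FPKM was compared with limma 3.58.1 in R 4.3.3 (eBayes with trend, two-sided, no covariates), adjusted over all 13171 genes. The fit was also run on simulated reads drawn gene by gene. These carry no trend shared between genes, such as that with GC content, so that run does not bear on such trends. Log2 changes are on the log2(FPKM + 0.5) scale, which understates low genes. Alternatives were pseudocounts, filters, denominators, GC and length removal, weights, voom on the reads, a replicate block and left-out libraries. Values are given per library for called members, the 6 highest, Slc25a20 and Slc25a44, and for Slc25a4, Slc25a12 and Slc25a34, chosen after their values were seen; means or ranges otherwise. The values of 1 member and of 2 other transporters are not reported here. The members and lists were chosen with earlier results of these data known. GC content came from GENCODE M21 transcripts, promoters from RefSeq, where 36 of 47 members matched. Of the members, 44 had the same coordinates in GENCODE M21.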

Additional observations from a re-analysis of the deposited data

Results flagged for a closer look

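Slc25a23, an ATP-Mg/phosphate carrier, had 30.3 FPKM in WT 3, while WT 1, WT 2 and WT 4 had 18.9 to 20.3 FPKM. This library stood far from the others of its group: the gap to the nearest was 0.874 of the group's range, past Dixon's 95% limit for 4 samples. Of 74 groups of 4 looked at, 1 stood out, and chance gives about 1 in 20.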

How the results depend on the processing

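The 4 lower members became 2 with no filter on low values, 1 with the library total as denominator, 2 with GC and length trend removed, 1 with the replicate block (Slc25a46, adjusted p = 0.024, while Slc25a17, Slc25a30 and Slc25a36 had 0.071, 0.071 and 0.096), 6 with array weights and 1 to 5 with 1 library left out. Members called higher, 0 at first (3 at an unadjusted p under 0.05 with limma), became 3 with array weights, 0 to 1 with 1 library left out and 2 without OGTBKO 1 and WT 1, an alternative chosen after seeing the data. Over all genes the 2050 calls became 1229 with no filter, 1237 with the library total, 3516 with array weights, 888 with the replicate block and 692 to 2122 with 1 library left out. Same-numbered libraries had correlations of 0.220, 0.169, 0.0143 and -0.00696. No correlations of differently numbered libraries were set beside these, so they do not settle whether the numbers pair the libraries. The main fit did not use the numbers. With the block, 0 genes in the list of other inner membrane transporters were called in either direction. Of 20 members whose log2 change was recomputed, 17 never changed sign. Slc25a20 reached -0.13 with array weights, -0.144 to 0.141 with 1 library left out and -0.21 without OGTBKO 1 and WT 1. Slc25a4 ranged from -0.0761 to 0.203 with 1 library left out (lowest without OGTBKO 1) and reached -0.13 without OGTBKO 1 and WT 1. Slc25a12 ranged from -0.14 (without OGTBKO 1) to 0.425 (without WT 1). With the library total the median of all genes was 0.094 and that of the members 0.11. Of 13 paralogue ratios, 1 moved by more than 1 SD. The cause was not tested. Kept members had at least 15 reads in every library, which limits the precision of the lowest.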
